A study of Mus musculus with 4 samples.

Results

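Genes of the cadherin and catenin families of cell adhesion were followed in tail tip fibroblasts (TTF) with and without an ectopic *Xist* transgene. The 10 genes were taken by symbol from the 23924 genes listed in the expression matrix: the cadherins *Cdh2*, *Cdh3*, *Cdh4*, *Cdh6*, *Cdh11* and *Cdh13*, and the catenins *Ctnna1*, *Ctnnb1*, *Ctnnd1* and *Jup*. Both groups of cells were male TTF on a C57BL/6J background that had been immortalized with SV40 large T, after which they were tetraploid. The TG group came from Tg2087/+ mice of the TgBAC8-2087 line, which carry an X-inactivation center sequence including *Xist* at a single autosomal place, and the WT group from +/+ littermates. Age and sampling time were not given in the sources used here. Polyadenylated RNA was sequenced in 2 libraries per genotype. The sources used here do not say whether each library of a genotype stands for an animal of its own, so the p-values measure only the spread between these libraries, which may be technical.

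Cadherins are calcium-dependent adhesion proteins whose extracellular repeats bind cadherins on the neighbouring cell. The tails of classical cadherins bind β-catenin or plakoglobin (*Jup*), which recruit α-catenin and through it actin, while p120-catenin (*Ctnnd1*) binds closer to the membrane and holds the cadherin at the surface. Fibroblasts and other mesenchymal cells are known for N-cadherin (*Cdh2*) and cadherin-11 in place of the epithelial E-cadherin (*Cdh1*), and β-catenin also acts in the nucleus in Wnt signalling.

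β-catenin and plakoglobin are close relatives that compete for the same cadherin tail, and their transcripts are compared as a ratio further on, so the promoter sequences of both are shown. The stretch from 250 to 51 bases before a start site of each gene is given 5′ to 3′ on the strand of the gene, from RefSeq on GRCm38, at chr9:120933150-120933349 on the plus strand for *Ctnnb1* and chr11:100397841-100398040 on the minus strand for *Jup*. For *Jup* that start lies just inside the outermost end of the annotated gene, which ends right before the window. Capitals mark a CCAAT box (CCAAT) or a GC box (GGGCGG) on either strand.
Ctnnb1: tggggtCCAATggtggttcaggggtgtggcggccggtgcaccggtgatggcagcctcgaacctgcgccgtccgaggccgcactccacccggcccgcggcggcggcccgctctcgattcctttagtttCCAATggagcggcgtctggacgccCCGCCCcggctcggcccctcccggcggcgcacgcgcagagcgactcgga
Jup: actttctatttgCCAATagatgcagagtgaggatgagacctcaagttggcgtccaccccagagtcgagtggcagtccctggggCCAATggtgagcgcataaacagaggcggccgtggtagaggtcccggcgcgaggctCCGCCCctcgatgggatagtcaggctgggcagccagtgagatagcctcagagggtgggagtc

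Each window held 2 CCAAT boxes and 1 GC box, and none of the boxes overlapped. A CCAAT box was present in 28.4% and a GC box in 24.8% of 32514 RefSeq promoter windows of this length. Neither window held an E-box (CANNTG), a TCF motif (CTTTGA) or a TATA box (TATAAA) on either strand, which were present in 59.1%, 11.8% and 9.08% of all windows. The GC content was 73.5% for *Ctnnb1* and 60.5% for *Jup*. *Ctnnb1* has a further start site in RefSeq, whose window is not shown and held 0 CCAAT boxes, 2 GC boxes and 1 TATA box. Promoters of 4 of the 10 genes were in the table used.

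Expression is given as FPKM, which divides the fragments of a gene by its length and by the sequencing depth, so levels can be set side by side between genes. Where 2 values are given for a genotype, they are libraries 1 and 2 in that order. From the steps between low FPKM values, the libraries were worked out to hold between 9465712 and 14639946 reads, with WT 2 being 1.55 times as deep as WT 1. TG was compared with WT by limma on log2(FPKM + 0.5) over the 11524 genes whose mean reached 0.5 FPKM, and p-values were adjusted over all of them by Benjamini-Hochberg. A gene was called when its adjusted p was below 0.01 and its log2 fold change reached 1 in either direction, which are the thresholds of the study. *Xist*, the check of the labels, had 0 and 28 reads in WT 1 and WT 2 and 489 and 449 reads in TG 1 and TG 2 (0, 0.108, 2.31 and 2.28 FPKM). Its log2 fold change of 2.34 had a limma adjusted p of 0.0112, so this rule did not call *Xist* itself. Limma's voom method, on reads worked out from the FPKM steps, gave 6.56 with an adjusted p of 0.00031, past both thresholds.

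Of the 10 genes, 8 were tested, and each of these stood at 4.13 FPKM or more in every library. *Cdh11* was the only member called down-regulated, at a rule that called 0.469% of all tested genes down and 0.607% up. Limma's voom method, run on reads worked out from the FPKM steps, also called *Cdh11* alone, against 1.28% of all genes down and 1.02% up. At an unadjusted p under 0.05, 3 members were lower (*Cdh11*, *Cdh3* and *Jup*) and 0 higher, against 6.88% and 12.7% of all tested genes. A looser rule, with an adjusted p below 0.05 and a log2 fold change reaching 0.5, passed *Cdh11* and *Cdh3* as lower and 0 members as higher, against 1.54% and 2.59% of all tested genes. With voom, the looser rule passed *Cdh11*, *Cdh3* and *Jup* as lower and 0 members as higher, against 4.16% and 3.44%. The 95% interval stayed inside a 1.5-fold change either way for 4 members (*Cdh2*, *Ctnna1*, *Ctnnb1* and *Ctnnd1*), against 19.8% of all tested genes. Both TG libraries lay below both WT libraries for 4 members (*Cdh11*, *Cdh3*, *Jup* and *Cdh13*) against 20.3% of all tested genes, and above them for 0 members against 30.2%. The median log2 fold change was -0.21 over the 8 members and 0.07 over all tested genes.

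**Figure D1:**
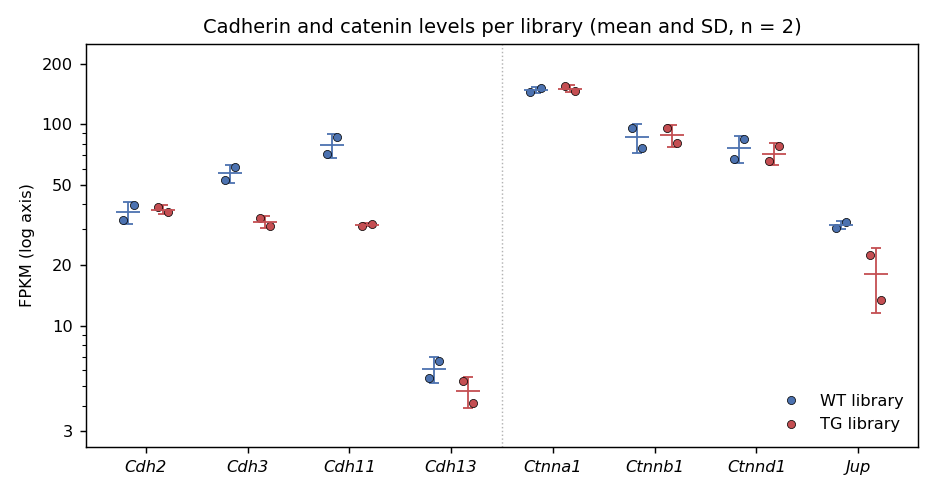
FPKM of the 8 tested genes in each library, on a log axis, with cadherins on the left and catenins on the right. Points are single libraries, long bars the mean and whiskers the SD (n = 2). The TG points of *Cdh11* (31.3 and 32.0 FPKM) lie far below its WT points (70.8 and 86.3 FPKM), while those of *Cdh2*, *Ctnna1*, *Ctnnb1* and *Ctnnd1* overlap with WT.

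Cadherin-11 is a type II classical cadherin of mesenchymal cells, also known as OB-cadherin. *Cdh11* stood at 70.8 and 86.3 FPKM in the WT libraries against 31.3 and 32.0 FPKM in the TG libraries. Both TG libraries were below both WT libraries, and the gap between the genotypes was wider than the spread within either. The TG mean of 31.7 ± 0.513 FPKM (SD, n = 2) was 59.7% below the WT mean of 78.6 ± 11.0 FPKM. These levels rested on 3329, 6279, 1854 and 1760 reads. The log2 fold change was -1.29 (SE 0.18, 95% interval -1.69 to -0.89, limma adjusted p = 0.00435), and voom gave -1.37 with an adjusted p of 4.8e-06. Leaving out 1 library kept the direction but not the call under limma: the log2 fold change and adjusted p were -1.43 and 0.0359 without WT 1, -1.15 and 0.0821 without WT 2, -1.27 and 0.0171 without TG 1, and -1.31 and 0.0123 without TG 2.

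Markers of contractile mesenchymal cells were lower in TG together with *Cdh11*. The smooth muscle and pericyte list of 8 genes summed to 8716 and 8964 FPKM in WT 1 and WT 2. In TG 1 and TG 2 the sum was 4088 and 4774 FPKM. Most of it came from *Acta2* (4031 and 4797 FPKM in WT, 1851 and 1996 FPKM in TG) and *Tagln*. *Tagln* stood at 3920 and 3455 FPKM in WT against 2038 and 2514 FPKM in TG. Both TG libraries lay below both WT libraries for all 6 tested genes of the list, against 20.3% of all tested genes. *Cnn1*, a contractile protein, was called down-regulated (-1.78, limma adjusted p = 0.00114), whereas *Myh11*, the defining myosin of mature smooth muscle, did not pass 0.376 FPKM in any library. The part of these genes in the results on cadherins was not tested. In such bulk libraries, fewer cells of a kind and less RNA per cell cannot be told apart.

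P-cadherin, encoded by *Cdh3*, is a type I classical cadherin named for the placenta and found in basal epithelia, and it was abundant in these fibroblasts. *Cdh3* stood at 52.7 and 61.1 FPKM in WT against 34.2 and 31.1 FPKM in TG. The groups did not overlap, and the TG mean of 32.7 ± 2.19 FPKM (SD, n = 2) was 42.6% below the WT mean of 56.9 ± 6.0 FPKM. Its log2 fold change was -0.79 (SE 0.18, 95% interval -1.19 to -0.39, limma adjusted p = 0.0372), short of the call by both thresholds, and voom gave -0.87 with an adjusted p of 0.002. The adjusted p ranged from 0.002 to 0.24 over 13 alternatives.

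N-cadherin is the type I cadherin by which fibroblasts are usually recognised. *Cdh2* stood at 33.4 and 39.9 FPKM in the WT libraries against 38.9 and 36.5 FPKM in the TG libraries. Both TG values lay between the WT values. The log2 fold change of 0.04 (SE 0.18, limma adjusted p = 0.927) had a 95% interval of -0.36 to 0.45, or 0.778-fold to 1.37-fold. Its sign turned under upper-quartile scaling (-0.02), quantile normalization (-0.05) and voom (-0.02).

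T-cadherin, encoded by *Cdh13*, has no cytoplasmic tail, being anchored in the membrane by a glycosylphosphatidylinositol group, and therefore binds no catenin. *Cdh13* stood at 5.47 and 6.71 FPKM in WT against 5.33 and 4.13 FPKM in TG. The TG libraries were both lower, with TG 1 just below WT 1, and the log2 fold change of -0.34 (SE 0.25, 95% interval -0.89 to 0.21) did not pass the limma test (adjusted p = 0.508).

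R-cadherin (*Cdh4*) and the kidney cadherin *Cdh6* were not detectable as expressed. *Cdh4* was listed at 0 in each library, and 0 reads leave room for up to 3 in each. *Cdh6* was listed at 0.0263 FPKM in WT 1, the value of 1 read at the shortest gene length the values allow, and at 0 in the other libraries. E-cadherin (*Cdh1*), the defining epithelial cadherin, was at 0.148 FPKM in WT 1 and listed at 0 in WT 2, TG 1 and TG 2. The mesenchymal cadherins *Cdh2* and *Cdh11* were thus present and the epithelial *Cdh1* at or near 0, while *Cdh3*, known from epithelia, was also expressed.

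The mix of RNA among the 6 cadherin members differed between the genotypes. Other expressed cadherins are outside this sum. Among them was *Cdh24*, at 8.56 and 6.7 FPKM in WT against 5.17 and 7.08 FPKM in TG, a level like that of *Cdh13*. Summed over the cadherin members, the level was 162 and 194 FPKM in the WT libraries and 109.8 and 104 FPKM in the TG libraries. *Cdh11* made up 43.6% and 44.5% of that sum in WT 1 and WT 2 and 28.5% and 30.9% in TG 1 and TG 2. The share of *Cdh2* was 20.6% in both WT libraries and 35.5% and 35.1% in TG 1 and TG 2. Its own mean level was 36.7 FPKM in WT and 37.7 FPKM in TG, so the larger share reflects the smaller sum. The share of *Cdh3* lay between 30.0% and 32.4% in all 4 libraries.

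**Figure D2:**
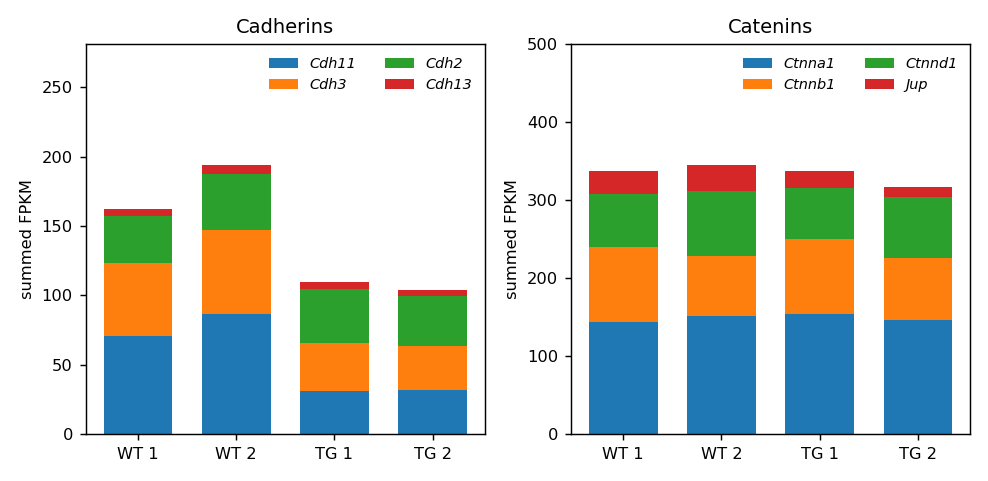
Summed FPKM of the cadherin members (left) and catenin members (right) in each library, as stacked bars from 0. The cadherin bars are shorter in TG (109.8 and 104 FPKM) than in WT (162 and 194 FPKM), mostly in the *Cdh11* and *Cdh3* segments, and the catenin bars lie between 318 and 345 FPKM.

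A ratio between genes within a library does not depend on how libraries were scaled. The ratio of *Cdh2* to *Cdh11* was 0.472 and 0.462 in WT 1 and WT 2 and 1.24 and 1.14 in TG 1 and TG 2, 2.55-fold higher in TG (log2 difference 1.35). *Cdh11* was therefore the more abundant of the pair in both WT libraries and the less abundant in both TG libraries. The ratio of *Cdh11* to *Cdh13* was 12.9 in both WT libraries and 5.88 and 7.75 in TG 1 and TG 2 (log2 difference -0.93). For each of these ratios the groups did not overlap, and the exact permutation test (two-sided) gave p = 0.333, the smallest that 2 libraries against 2 allow. With 5 ratios compared, no adjusted value could be lower.

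α-catenin (*Ctnna1*), the link to actin, was the most abundant member in every library. *Ctnna1* stood at 144 and 152 FPKM in the WT libraries against 154 and 146 FPKM in the TG libraries. The groups overlapped, and the log2 fold change was 0.02 (SE 0.17, 95% interval -0.35 to 0.39, limma adjusted p = 0.967). The sign of so small a difference turned under upper-quartile scaling, quantile normalization and voom.

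β-catenin joins the cadherin tail to α-catenin. *Ctnnb1* stood at 95.9 and 76.3 FPKM in WT against 95.8 and 80.3 FPKM in TG. Its spread within each genotype was larger than the difference between them, with a log2 fold change of 0.04 (SE 0.19, 95% interval -0.39 to 0.46, limma adjusted p = 0.941), whose sign turned under the same 3 alternatives.

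p120-catenin (*Ctnnd1*) was at 67.5 and 84.1 FPKM in the WT libraries against 65.3 and 77.8 FPKM in the TG libraries. The groups overlapped here as well, and the log2 fold change was -0.08 (SE 0.19, 95% interval -0.50 to 0.34, limma adjusted p = 0.867). For these 3 catenins, the ratios to one another overlapped too: *Ctnna1* to *Ctnnb1* was 1.51 and 1.99 in WT and 1.61 and 1.82 in TG (exact permutation p = 1), and *Ctnnd1* to *Ctnnb1* was 0.703 and 1.10 in WT and 0.681 and 0.969 in TG (exact permutation p = 0.667).

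Plakoglobin can replace β-catenin on the cadherin tail and is also a part of desmosomes. *Jup* stood at 30.6 and 32.8 FPKM in the WT libraries against 22.5 and 13.4 FPKM in the TG libraries, from 1410, 2332, 1304 and 723 reads. Both TG libraries were below both WT libraries, but they differed from each other by 0.72 on the log2 scale. The TG mean of 18.0 ± 6.4 FPKM (SD, n = 2) was 43.3% below the WT mean of 31.7 ± 1.5 FPKM. The log2 fold change was -0.85 (SE 0.24, 95% interval -1.38 to -0.31), which did not pass the limma test (adjusted p = 0.081), while voom gave -0.92 with an adjusted p of 0.004. The size rested on TG 2: the log2 fold change was -0.49 without it and -1.21 without TG 1.

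The ratio of *Jup* to *Ctnnb1* was 0.319 and 0.430 in WT 1 and WT 2 and 0.235 and 0.168 in TG 1 and TG 2 (log2 difference -0.90, exact permutation p = 0.333). The 4 catenins summed to 328 ± 14.3 FPKM (SD, n = 2) in TG against 342 ± 4.79 FPKM in WT, and *Jup* made up 9.05% and 9.49% of it in WT 1 and WT 2 and 6.66% and 4.23% in TG 1 and TG 2. The plakoglobin transcript was thus the member of the catenin set with a lower level in both TG libraries.

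**Figure D3:**
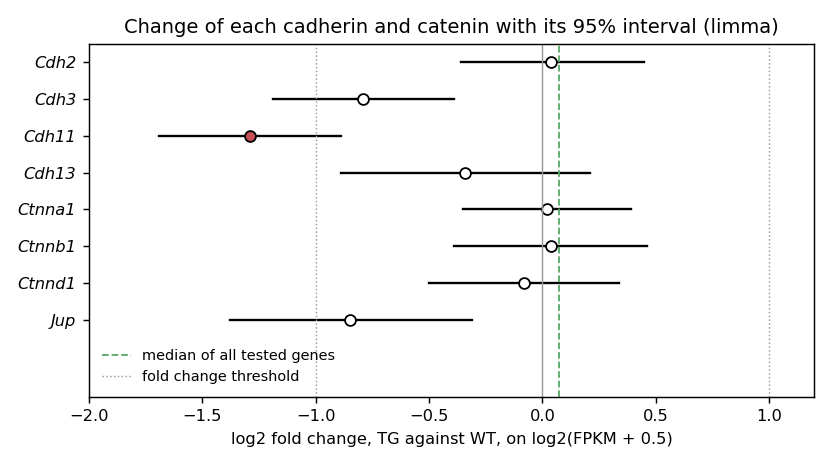
Log2 fold change of TG against WT for each tested gene with its 95% interval from limma; the filled point is the called gene and the green line the median of all tested genes (0.07). The intervals of *Cdh11*, *Cdh3* and *Jup* lie below 0 and the other 5 include it.

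In WT the order of levels was *Ctnna1*, *Ctnnb1*, *Cdh11*, *Ctnnd1*, *Cdh3*, *Cdh2*, *Jup* and *Cdh13*, and in TG it was *Ctnna1*, *Ctnnb1*, *Ctnnd1*, *Cdh2*, *Cdh3*, *Cdh11*, *Jup* and *Cdh13*. *Ctnnb1*, *Cdh11* and *Ctnnd1* overlapped with one another in WT. In TG the overlapping neighbours were *Cdh3* and *Cdh11*, and *Cdh2* lay above both of them in each TG library.

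*Cdh11*, *Cdh3* and *Cdh13* all lie on Chr 8, in that order, at 102632095 to 102785493, 106510852 to 106556911 and 118140017 to 119324929 of GRCm38. The gap from *Cdh11* to *Cdh3* is 3.73 Mb and that from *Cdh3* to *Cdh13* is 11.6 Mb. The other tested members lie on Chr 2 (*Ctnnd1*), Chr 9 (*Ctnnb1*), Chr 11 (*Jup*) and Chr 18 (*Cdh2* and *Ctnna1*). Between *Cdh11* and *Cdh3*, 55 genes were tested, of which 24 had a lower and 31 a higher estimate in TG, with a median log2 fold change of 0.03 against 0.07 over all 639 tested genes of Chr 8. Limma and voom each called 0 of the 55, and 5 were lower and 8 higher at an unadjusted p under 0.05, shares near the 6.88% and 12.7% of all tested genes. At the looser rule, *Tppp3* (-1.91) was lower and *Hsf4* (2.48) and *Ciao2b* (0.82) were higher; these 3 were chosen after their values were seen.

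The tested gene before *Cdh11* is *Got2*, a mitochondrial aminotransferase 6.74 Mb away, which stood at 39.9 and 43.2 FPKM in WT against 57.1 and 42.7 FPKM in TG (log2 fold change 0.25, limma adjusted p = 0.546). The next tested gene is *1600027J07Rik*, 0.558 Mb away, which had only 30 and 12 reads in WT and 6 and 0 in TG (log2 fold change -2.43, SE 0.66, limma adjusted p = 0.068). Its WT libraries were far apart, at 9.32 and 2.41 FPKM. No tested gene lay nearer to *Cdh11*.

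**Figure D4:**
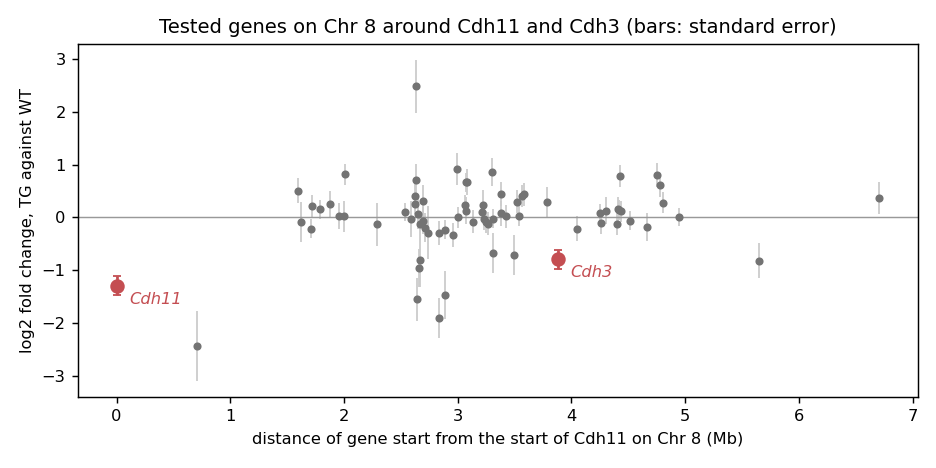
Log2 fold change of TG against WT (limma, bars are the SE) for tested genes on Chr 8 by distance of the gene start from that of *Cdh11* in Mb. *Cdh11* (-1.29) and *Cdh3* (-0.79) are in red, and the 55 genes between them lie on both sides of 0 with a median of 0.03.

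The genes whose profiles over the 4 libraries were nearest to *Cdh11*, by Euclidean distance of mean-centred log2(FPKM + 0.5), were *Adam19*, *Adamts12* and *Tll1*, with distances of 0.0601, 0.0899 and 0.107. All 3 encode secreted or membrane metalloproteinases. *Adam19* stood at 9.39 and 11.8 FPKM in WT against 3.81 and 3.89 FPKM in TG. Its log2 fold change of -1.35 had a limma adjusted p of 0.0111, with 0.0228 for *Adamts12* (-1.22) and 0.0137 for *Tll1* (-1.26), which is also on Chr 8. Since these genes were picked for their likeness, the values are a description.

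Partner genes were read from 9 lists, and limma called 0 genes in any of them, against 0.469% of all tested genes down and 0.607% up. At shares that small, 0 calls say little about lists of this size. The voom calls of the lists are to be read against 1.28% down and 1.02% up. The counts of the lists at an unadjusted p under 0.05 are to be read against 6.88% lower and 12.7% higher among all tested genes. Of the 14 other classical cadherins, 7 were listed at 0 throughout and 2 were tested. *Cdh18* was at 1.14 and 2.29 FPKM in WT against 4.20 and 2.72 FPKM in TG (log2 fold change 0.86, adjusted p = 0.207), the one gene of this list higher at an unadjusted p under 0.05, and *Cdh24* had -0.30 (adjusted p = 0.560). Voom called neither. Of the 10 desmosomal genes, none reached the level for testing and 5 were at 0.

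Of 8 tested genes in the list of catenin relatives, 2 were lower and 0 higher at an unadjusted p under 0.05. The list also held *Ctnnbip1* and *Ctnnbl1*, which are named for β-catenin but are not catenins. *Ctnnd2*, the δ-catenin of neurons and a relative of p120-catenin, stood at 3.25 and 3.22 FPKM in WT against 0.788 and 0.432 FPKM in TG. Its log2 fold change of -1.77 had a limma adjusted p of 0.0184, between the stricter and the looser threshold, and voom called it (-2.50, adjusted p = 0.00044). *Pkp2*, a plakophilin that binds plakoglobin in desmosomes, stood at 18.5 and 14.2 FPKM in WT against 13.4 and 8.31 FPKM in TG (-0.59 on the log2 scale, adjusted p = 0.229).

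Among the 22 adaptors of the adherens junction, which tie it to actin and nectins, the median log2 fold change was -0.03, and 2 were lower and 2 higher at an unadjusted p under 0.05. The scaffold *Magi1* had the largest difference, at 6.61 and 6.73 FPKM in WT 1 and WT 2 and 4.10 and 2.74 FPKM in TG 1 and TG 2 (-0.89, adjusted p = 0.0873 by limma; voom called it). *Plekha7*, which binds p120-catenin, was next (-0.87, adjusted p = 0.262). Vinculin (*Vcl*), which α-catenin recruits under tension, was outside the rule for naming and stood between 128 and 144 FPKM in all libraries.

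Genes that cleave, traffic or turn over cadherins had a median of -0.18 over 19 tested, with 1 lower and 0 higher at an unadjusted p under 0.05 and 0 called by voom. Their largest differences were *Psenen*, a γ-secretase subunit (0.58, adjusted p = 0.376), and *Exoc4*, of the exocyst (-0.50, adjusted p = 0.184).

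On the nuclear side of β-catenin, the partners in transcription had a median log2 fold change of -0.67 over 15 tested genes, the lowest of the lists. Limma called 0 of them, voom called 1 down, and 9 were lower and 2 higher at an unadjusted p under 0.05, against 6.88% and 12.7% of all tested genes. Both TG libraries lay below both WT libraries for 10 of the 15 and above for 3, against 20.3% and 30.2% of all tested genes. *Tcf7l2*, a DNA-binding partner, stood at 18.1 and 33.7 FPKM in WT against 9.48 and 13.6 FPKM in TG (-1.09, limma adjusted p = 0.0648), and voom gave -1.22 with an adjusted p of 0.0018. The corepressor *Tle4* had -0.84 (adjusted p = 0.250).

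The list for the destruction complex, which marks free β-catenin for degradation, also held *Dvl1*, *Dvl2*, *Dvl3* and *Siah1a*, which are not parts of the complex itself. This list had a median of -0.09 over 14 tested genes, 1 lower and 0 higher at an unadjusted p under 0.05 and 0 called by voom. *Dvl3* (-0.50, adjusted p = 0.183) and *Siah1a* (-0.39, adjusted p = 0.548) differed most. Known targets of β-catenin had a median of 0.12 over 6 tested, 2 lower and 1 higher at an unadjusted p under 0.05 and 0 called by voom. *Nkd2* (-1.11, adjusted p = 0.143) and *Lef1* (-0.78, adjusted p = 0.0797), which is also in the list of nuclear partners, had the largest differences. The higher target was *Ccnd1*, named after its values were seen, at 50.2 and 58.5 FPKM in WT against 84.1 and 95.5 FPKM in TG (0.72, limma adjusted p = 0.0527).

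Of 11 tested transcription factors that are known to regulate cadherins, 1 was lower and 5 higher at an unadjusted p under 0.05 (6.88% and 12.7% of all tested genes), with a median of 0.17 and 0 called by voom. The largest changes were -0.96 for *Klf8* (limma adjusted p = 0.255) and 0.85 for *Foxc2* (limma adjusted p = 0.113). *Klf8* was low, at 1.29 and 0.945 FPKM in WT against 0.172 and 0.51 FPKM in TG. The 1 lower gene was *Snai2*, named after its values were seen (-0.65, limma adjusted p = 0.145). *Snai2* stood at 14.4 and 19.8 FPKM in WT against 9.36 and 11.9 FPKM in TG. *Twist2*, named after its values were seen, was the one gene of the list past the looser threshold, at 34.7 and 30.5 FPKM in WT 1 and WT 2 and 57.8 and 54.3 FPKM in TG 1 and TG 2 (0.78, limma adjusted p = 0.0372).

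**Figure D5:**
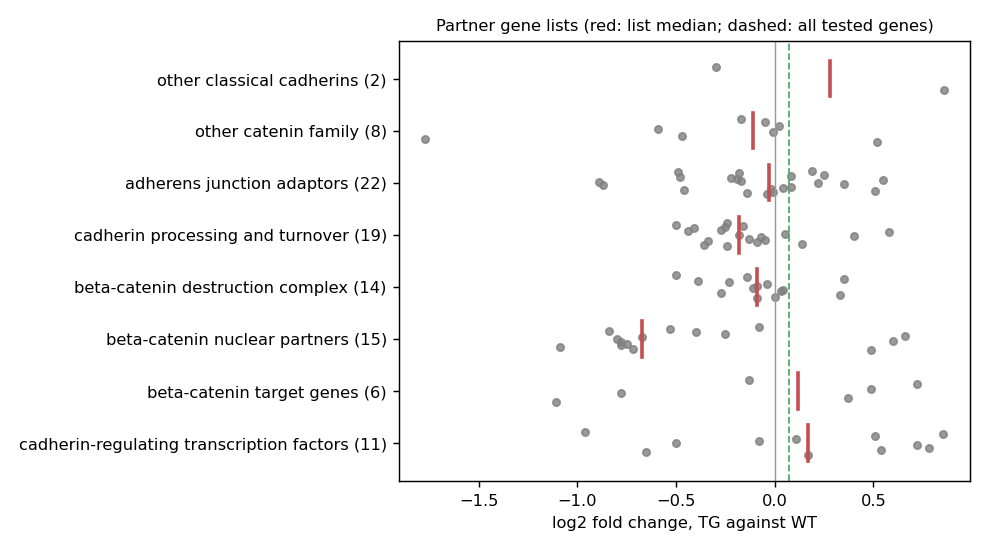
Log2 fold change of TG against WT for the tested genes of each partner list (number tested in parentheses). Each point is a gene, the red bar the median of the list and the dashed line the median of all tested genes (0.07); the median of the nuclear partners (-0.67) is the lowest.

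Markers of other cell types were read as well, and their part in the results was not tested. The 10 fibroblast markers summed to 4342 and 3920 FPKM in WT 1 and WT 2 and 3677 and 3777 FPKM in TG 1 and TG 2. Both TG libraries lay below both WT libraries for 5 of the 7 tested markers, against 20.3% of all tested genes. They lay above both WT libraries for the other 2 (*Vim* and *Pdgfra*), against 30.2%. *Pdgfrb* stood at 56.8 and 57.3 FPKM in WT against 31.7 and 26.8 FPKM in TG (-0.96, limma adjusted p = 0.0165). The collagen gene *Col1a1* was at 867 and 789 FPKM in WT against 407 and 539 FPKM in TG (-0.82, limma adjusted p = 0.0491), with -0.64 for *Col1a2* and -0.34 for *Col3a1*, neither of which passed. *Vim*, which makes up most of the sum, lay between 2147 and 2547 FPKM and *Thy1* between 452 and 681 FPKM. *Lum* was listed at 0, and *Dcn*, *Fap* and *Pdgfra* were low or absent. *Pdgfra* went the other way from the collagen genes, at 0.0999 and 0.307 FPKM in WT against 0.823 and 1.13 FPKM in TG. Its log2 fold change was 1.08 (limma adjusted p = 0.218), and voom gave 2.2 with an adjusted p of 0.029. The 10 epithelial markers summed to 1.94 and 2.41 FPKM in WT against 12.4 and 13.2 FPKM in TG. Most of that came from *Krt18*, at 1.10 and 2.24 FPKM in WT against 11.5 and 12.2 FPKM in TG (2.56, limma adjusted p = 0.00123, called up-regulated), with 5 markers including *Krt5*, *Krt14* and *Krt8* at 0. Endothelial, skeletal myogenic and glial or melanocytic markers summed to under 1 FPKM in every library, and immune markers to between 5.12 and 12.8 FPKM, nearly all from *Cd68*, with *Ptprc* at 0.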

How the data were processed

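RNA-seq of 2 WT and 2 TG libraries was used. The authors isolated polyadenylated RNA, made strand-specific random-primed cDNA and sequenced it in paired-end mode. They aligned reads with Rsubread (genome mm10), ran featureCounts for counts per gene and deposited FPKM computed with countToFPKM. Versions, the gene annotation and the use of strand in counting were not given in the sources used here. Whether the counts kept reads of genes on opposite strands apart is therefore not known. The study's own test was DESeq on counts, which are not used here.

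Groups were taken from the labels. Symbols were placed on GRCm38.p6 by RefSeq (23725 matched directly, 94 by an older symbol, 105 not). The main test was limma 3.58.1 in R 4.3.3 (lmFit and trended eBayes) on log2(FPKM + 0.5) for genes averaging 0.5 FPKM or more. A fold change on this scale understates that of low genes. Whole reads were recovered from the FPKM steps for 15529 of 15530 genes above 0 (99.99%, tolerance 0.01 reads), with a common factor set from gene length for 1196 genes, and tested with voom. *Acta2*, the gene without recovered reads, was left out of voom. Read counts and limits cover counting error only. Ratios were compared by exact permutation. The scripts were tested on simulated data. The members and lists were chosen with earlier results of these data known. The genes named are the members, the called genes or else the 2 largest changes of each partner list, the tested neighbours of the called member, the 3 genes most like it, and *Xist*. Alternatives were other pseudocounts, filters, scalings and thresholds, no variance trend, the replicate block, each library left out and voom. Voom at the looser thresholds was added after seeing the data. The result of 1 further partner list is not reported here.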

Additional observations from a re-analysis of the deposited data

How the results depend on the processing

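The call of *Cdh11* depended on the setting although its direction did not: the log2 fold change lay between -1.43 and -1.15 over 13 alternatives, with an adjusted p under 0.01 in 6 and under 0.05 in 11 of them. Members called down numbered 0 with every gene above 0 tested (*Cdh11* adjusted p = 0.053), without the variance trend (0.0409) and with the replicate block (0.0288), and 0 to 0 when each library was left out, where the lone library of an arm was assumed to vary like the other group. They numbered 2 at the looser thresholds and 3 for voom at these (*Cdh11*, *Cdh3* and *Jup*, against 4.16% of all genes), which was added after seeing the data. Over all genes, 54 were called down and 70 up, against 1 and 0 with every gene above 0, 6 and 3 without the trend, 8 and 12 with the block, 147 and 118 by voom, 178 and 298 at the looser thresholds, 53 and 47 with upper-quartile scaling and 68 and 58 with quantile normalization. They were 1 and 0 without WT 1, 2 and 7 without WT 2, 47 and 47 without TG 1 and 41 and 66 without TG 2, so the shares of all genes called rest on both WT libraries. Signs turned only for differences near 0. *Cdh2* was -0.02 with upper-quartile scaling, -0.05 with quantile normalization, -0.02 with voom and -0.08 to 0.17 with a library left out. *Ctnna1* was -0.05, -0.09, -0.05 and -0.02 to 0.06, *Ctnnb1* -0.03, -0.10, -0.02 and -0.13 to 0.20, and *Ctnnd1* turned only with a library left out (-0.24 to 0.08). *Cdh3*, *Cdh13* and *Jup* kept their sign and stayed uncalled in all 13, although the adjusted p of *Cdh3* and *Jup* was under 0.01 with voom and the fold of *Jup* passed 1 without TG 1 (-1.21). With a library left out, the log2 difference lay between 1.28 and 1.41 for *Cdh2* to *Cdh11*, -1.13 and -0.73 for *Cdh11* to *Cdh13*, -1.14 and -0.66 for *Jup* to *Ctnnb1*, -0.22 and 0.19 for *Ctnna1* to *Ctnnb1*, and -0.44 and 0.21 for *Ctnnd1* to *Ctnnb1*. The cause of these changes was not tested. The difference between libraries 1 and 2 was nearly uncorrelated between WT and TG (-0.0276 across 11524 genes). This single value cannot settle whether the replicate numbers pair the libraries, which the labels do not say. The block moved the calls as given above.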
